A study of Mus musculus with 48 samples.

Results

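The CC chemokine genes described here are 9 genes for secreted ligands (Ccl2, Ccl3, Ccl4, Ccl5, Ccl6, Ccl7, Ccl8, Ccl9 and Ccl11) and the receptor gene Ccr2. They were taken by name, 10 of the 34586 genes of the count table, and all 10 had counts. CC chemokines are small secreted proteins that attract leukocytes along a gradient by binding G protein-coupled receptors on the cell surface. Ccl2 and Ccl7 bind Ccr2, which monocytes use to leave the bone marrow and to enter inflamed tissue, and Ccl3, Ccl4 and Ccl5 attract monocytes, granulocytes and lymphocytes. In the inflamed joint, ligands of this family are known as signals that bring in monocytes and neutrophils.

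Single-cell RNA was counted with Seq-Well, in which each cell shares a nanowell with a barcoded bead and every captured transcript gives 1 unique molecular identifier (UMI). Joint, lung, muscle, skin and spleen of male DBA1/J mice were sampled, from 4 healthy controls (H3, H4, H6, H7) and 6 mice with collagen-induced arthritis (CIA; S1, S2, S3, S5, S6, S8). The CIA mice had received bovine collagen II in complete Freund's adjuvant and a booster in incomplete adjuvant on day 20, and the controls saline. Joint samples were from 3 healthy and 5 CIA mice, and the other organs from 4 and 6. The methods of the study give an age of 8 to 12 weeks for the mice and do not state their age when the organs were taken. The sample names of H3, S1, S2 and S3 end in 2CIA and those of the other 6 mice in CIA, and each ending is taken here as the name of an experiment. S1, S2 and S3 were the CIA mice with the highest arthritis scores, so if the endings mark experiments, the severity of the arthritis cannot be separated from the experiment. The controls received no adjuvant, so the effects of the adjuvant and of the arthritis cannot be told apart either. All samples had been frozen and thawed, and all organs but spleen had then been digested with enzymes.

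The table held 13240 cells, of which 12096 carried 1 of 13 cell type labels given by the authors, and these annotated cells were used throughout. A sample held 30 to 1989 of them and 17748 to 1645734 UMIs, and a cell held 410 to 6239 UMIs with a median of 675, so that most cells with a transcript of a chemokine showed a single UMI. In all, 59 cell barcodes occurred in more than 1 sample and covered 112 annotated cells, with 34 of the barcodes shared by muscle and spleen of S8. Fitted values without those cells are given where they change a result, and levels by label include those cells. Genes that define a label were present in the groups of cells named next, and the other labels were taken as the authors gave them. The 10 macrophage markers summed to 26453 CPM (UMIs of a gene per 1000000 UMIs of the same cells) in lung macrophages and all 10 were found, the 8 fibroblast markers summed to 47527 in joint fibroblasts and all 8 were found, and the 3 NK markers summed to 903 in spleen NK cells. Cells of other labels in joint also held granulocyte transcripts, with a sum over 4 granulocyte markers of 15208 in joint fibroblasts and 29936 in joint macrophages, against 380929 in joint granulocytes.

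On the mouse genome (GRCm38, GENCODE gene models) the ligand genes lie on chromosome 11 in 2 groups, and the whole gene span is given here for each. The first group takes up 81.2 kb on the plus strand and holds Ccl2 (82035571 to 82037453), Ccl7 (82045712 to 82047525), Ccl11 (82057823 to 82062955) and Ccl8 (82115185 to 82116799). The second group takes up 139 kb and holds Ccl5 (83525778 to 83530518), Ccl9 (83572919 to 83578636), Ccl6 (83587882 to 83593087) and Ccl3 (83647844 to 83649355) on the minus strand, with Ccl4 (83662584 to 83664683) on the plus strand. Ccr2 lies on chromosome 9 (124101950 to 124113557, plus strand). The promoters of 3 ligands are shown, that of Ccl8 from the first group, with 54.0% of its UMIs in fibroblasts, and those of the adjacent Ccl6 and Ccl9 from the second, with 68.0% and 49.0% in macrophages. Each runs 5′ to 3′ on the strand of its gene, from 250 bases before the annotated start to 50 bases after it (RefSeq, GRCm38.p6), at chr11:82114935-82115234 for Ccl8, chr11:83593038-83593337 for Ccl6 and chr11:83578587-83578886 for Ccl9. Capitals mark matches to TATAAA on either strand, the core of a TATA box, and to TGANTCA, the AP-1 motif, which reads the same on both strands.
Ccl8: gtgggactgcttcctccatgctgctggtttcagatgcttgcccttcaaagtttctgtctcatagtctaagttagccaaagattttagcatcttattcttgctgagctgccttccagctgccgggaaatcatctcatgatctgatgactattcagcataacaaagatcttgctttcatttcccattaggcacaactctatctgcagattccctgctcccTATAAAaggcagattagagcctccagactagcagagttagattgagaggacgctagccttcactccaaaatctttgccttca
Ccl6: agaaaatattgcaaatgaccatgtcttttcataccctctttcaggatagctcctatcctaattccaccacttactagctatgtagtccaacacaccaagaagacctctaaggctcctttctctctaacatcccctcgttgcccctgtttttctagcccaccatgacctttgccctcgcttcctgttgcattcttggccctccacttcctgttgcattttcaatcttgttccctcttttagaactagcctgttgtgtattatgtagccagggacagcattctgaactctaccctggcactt
Ccl9: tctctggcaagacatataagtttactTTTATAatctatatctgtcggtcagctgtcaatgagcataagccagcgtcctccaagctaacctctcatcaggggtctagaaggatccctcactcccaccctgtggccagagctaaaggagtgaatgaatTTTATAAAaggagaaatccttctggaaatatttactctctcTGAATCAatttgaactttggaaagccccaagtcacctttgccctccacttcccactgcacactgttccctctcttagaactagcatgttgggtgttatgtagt
TATAAA lay 32 bases before the start in Ccl8 and 92 bases before it in Ccl9, where further matches on the other strand began 94 and 224 bases before the start, and 13.6% of the 32851 RefSeq promoters of this length hold such a match. TGANTCA lay 53 bases before the start in Ccl9 and in none of the promoters of Ccl3, Ccl6, Ccl8 and Ccr2, against 7.81% of all promoters. These matches are letters in a window and not measured sites.

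Fibroblasts held the most UMIs of Ccl2, Ccl7, Ccl8 and Ccl11, macrophages of Ccl6 and Ccl9, granulocytes of Ccl3, T cells of Ccl4, NK cells of Ccl5 and monocytes of Ccr2. Levels are given as CPM, pooled over the cells of a label in an organ, and since Seq-Well tags the 3′ end of a transcript once, gene length does not enter a comparison of levels between genes. The labels were made by the authors from these same counts, and Ccl6 and Ccr2 are among the marker genes the study used for monocytes, so levels by label are a description with no test.

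**Figure D1:**
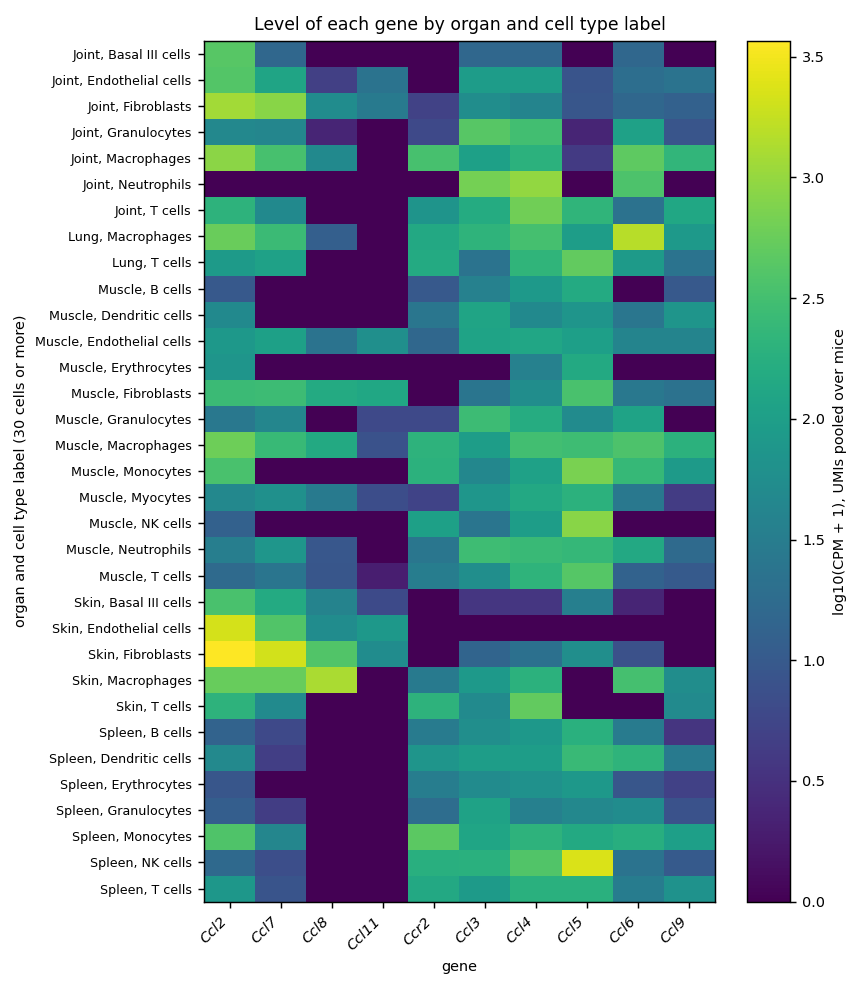
Level of the 10 CC chemokine genes (columns, log10 of CPM + 1 as colour) in 33 groups of cells (rows, 1 label in 1 organ, at least 30 cells each). Ccl2 and Ccl7 peaked in skin fibroblasts, Ccl6 in lung macrophages, Ccl5 in spleen NK cells and Ccr2 in spleen monocytes.

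Ccl2 was the most counted of the 10, with 3895 UMIs in 1189 cells (9.83% of annotated cells). Fibroblasts held 55.9% of its UMIs and macrophages 19.4%, and skin held more of them than any other organ, 37.9%. The level was 3682 CPM in skin fibroblasts, 2175 CPM in 40 skin endothelial cells, 1196 CPM in joint fibroblasts, 882 CPM in joint macrophages and 569 CPM in lung macrophages. Few cells carried much of it, since 1 skin fibroblast held 227 UMIs, skin of S2 alone held 764 UMIs (19.6% of all), and S2 gave 59.3% of the UMIs of skin fibroblasts and S3 47.4% of those of joint fibroblasts. A Ccl2 UMI was found in 26.2% of fibroblasts and 24.3% of macrophages (median 809 and 657 UMIs per cell), against 0.656% of B cells (median 579 UMIs), which are not known as a source. After thinning every cell to 400 UMIs the shares were 18.5%, 16.1% and 0.292%.

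Ccl7, a close relative of Ccl2 that also binds Ccr2, had 2129 UMIs in 757 cells and the same leading sources. Fibroblasts held 66.4% of its UMIs and macrophages 15.5%, at 2070 CPM in skin fibroblasts and 859 CPM in joint fibroblasts. Skin macrophages and joint macrophages held 549.8 and 336 CPM. A Ccl7 UMI was found in 24.0% of fibroblasts and 0.292% of B cells (16.3% and 0.146% after thinning). Both genes were often found in 1 cell. Of the 158 joint fibroblasts with Ccl2, 58.2% also had Ccl7, and of the 144 skin fibroblasts with Ccl2, 60.4% did. Whatever their Ccl2, 143 of all 603 joint fibroblasts and 120 of all 324 skin fibroblasts had Ccl7. Across the 33 groups of cells in the heat map, which share mice, libraries and depth, the log levels of both genes had a Pearson r of 0.80.

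Ccl8, which in mice acts on Ccr8, was rarer, with 420 UMIs in 204 cells, and 54.0% of its UMIs were in fibroblasts and 26.2% in macrophages. It reached 401 CPM in skin fibroblasts, 152 CPM in muscle fibroblasts and 53.1 CPM in joint fibroblasts. Its highest pooled level, 1292 CPM in 58 skin macrophages, came from 47 UMIs in 4 cells, 43 of them in 1 cell of S2. A Ccl8 UMI was found in 8.40% of fibroblasts and in 0 of 1372 B cells, which allows a share of cells with a UMI of up to 0.219% at a median of 579 UMIs per cell and does not limit the share of cells that express it. No UMI was found in the spleen of any mouse, which over all spleen cells allows up to 1.10 CPM (3 counts of the total, counting error only).

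Ccl11, or eotaxin, which attracts eosinophils through Ccr3, was the rarest gene with 129 UMIs in 101 cells, never more than 4 in 1 cell. Fibroblasts held 69.0% and endothelial cells 19.4% of these UMIs, and muscle held 60.5%. Muscle fibroblasts had 133 CPM, muscle endothelial cells 58.0 CPM, skin fibroblasts 53.1 CPM and joint fibroblasts 27.9 CPM, while spleen had 0 UMIs, as for Ccl8. Ccl11 was thus led by muscle, where the other 3 genes of the first chromosomal group were led by skin or joint. The genes most like Ccl11 across the 33 groups were Cadm3, Ddr2 and Rhoj (r = 0.94 each), while Ccl2 was most like Fgfr1 (0.84), Ccl7 most like Fndc3b and Stx3 (0.85 each) and Ccl8 most like Slc6a8 (0.86), with Ccl7 the third for Ccl8 (0.80).

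Ccr2, the receptor of Ccl2 and Ccl7, was led by monocytes and macrophages and was found in few fibroblasts. Monocytes held 34.9% and macrophages 33.2% of its 746 UMIs, and a Ccr2 UMI was found in 25.2% of monocytes and 13.6% of macrophages (median 815 and 657 UMIs per cell), against 0.151% of fibroblasts (809 UMIs), the leading source of its ligands. After thinning these shares were 14.7%, 7.44% and 0.0756%. The level was 465 CPM in spleen monocytes, 342 CPM in joint macrophages, 199 CPM in muscle macrophages and 178 CPM in spleen NK cells. Joint macrophages held 81.4% of the Ccr2 UMIs of joint, so there the receptor and 882 CPM of Ccl2 stood in cells of 1 label. Of the 122 joint macrophages with Ccl2, 30.3% also had a Ccr2 UMI, and of the 99 spleen monocytes with Ccl2, 47.5% did. Whatever their Ccl2, 81 of all 304 joint macrophages and 138 of all 528 spleen monocytes had a Ccr2 UMI, so the share in joint macrophages with Ccl2 was near that of the label. Selplg, the gene of the P-selectin ligand PSGL-1, followed Ccr2 most closely across the 33 groups (r = 0.88).

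Ccl3 and Ccl4, neighbouring genes for the macrophage inflammatory proteins, were counted in myeloid cells and lymphocytes. Granulocytes held 35.5% of the 1194 Ccl3 UMIs, at 437 CPM in 759 joint granulocytes and 671 CPM in 33 joint neutrophils, and granulocytes gave 67.1% of the Ccl3 UMIs of joint. The 33 joint neutrophils were all from CIA mice, at 0 to 3.04% of the joint cells of a mouse, and held 20 Ccl3 UMIs. In lung, where granulocytes were few, macrophages gave 92.1% of Ccl3, at 205 CPM. Ccl3 was found in 20.1% of granulocytes (12.3% after thinning, median 844 UMIs) and 0.391% of basal III cells of skin and other organs (0% after thinning, median 814.5 UMIs), an epithelial label.

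The sources of Ccl4 were more mixed. T cells held 22.4% and macrophages 17.8% of its 1730 UMIs, and the levels were 973 CPM in joint neutrophils, 618 CPM in joint T cells, 392 CPM in spleen NK cells, 322 CPM in lung macrophages and 307 CPM in joint granulocytes. The level in joint T cells rested on few cells, since 1 of the 161 held 60 UMIs. That in joint neutrophils rested on 29 UMIs, all in CIA mice. Ccl3 and Ccl4 had a Pearson r of 0.76 across the 33 groups. Of the cells with Ccl3, 19.8% also had Ccl4, against 7.62% of all annotated cells. A single UMI was all that 76.2% of cells with Ccl3 and 71.3% of cells with Ccl4 showed, which limits how often both can be found in 1 cell.

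Ccl5, a ligand made by cytotoxic lymphocytes, had 2338 UMIs, of which NK cells held 34.7% and T cells 22.5%. Spleen NK cells stood above all other groups at 2283 CPM, and 38.9% of them had a UMI (33.1% after thinning). The next groups were muscle NK cells at 859 CPM, lung T cells at 518 CPM and muscle T cells at 417 CPM. The level in muscle NK cells rested on S8, which gave 93.2% of the UMIs, and was 92.0 CPM without that mouse. Muscle and spleen of S8 share 34 cell barcodes, and the level includes any cells that carry them. In 46 muscle monocytes it was 699.7 CPM, of which H6 gave 71.9%, and 210 CPM without H6. Of the spleen NK cells with Ccl4, 71.1% also had Ccl5. Ccl5 was found in 1.66% of granulocytes (0.331% after thinning) and in 7.07% of erythrocytes (3.70% after thinning, median 835 UMIs), and the part of RNA from outside the cell in such low values was not tested. Lck, the kinase of the T cell receptor, and Sh2d1a were the genes most like Ccl5 (r = 0.83 each).

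Ccl6 and Ccl9, rodent ligands of Ccr1 that lie side by side, were both led by macrophages. Macrophages held 68.0% of the 1426 Ccl6 UMIs and 49.0% of the 349 Ccl9 UMIs. The highest levels of the pair were in different organs. Lung macrophages had 1505 CPM of Ccl6 and gave 99.3% of the Ccl6 UMIs of lung, with a UMI in 37.2% of these cells, but had 83.9 CPM of Ccl9. Joint macrophages had 486 CPM of Ccl6 and 219 CPM of Ccl9, and spleen monocytes 102 CPM of Ccl9. Clec7a, the beta-glucan receptor Dectin-1, was the gene most like Ccl6 (r = 0.93) and F13a1 that most like Ccl9 (r = 0.79). A Ccl6 UMI was found in 30.3% of macrophages (21.7% after thinning) and 0.673% of erythrocytes (0% after thinning).

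To compare CIA with healthy mice, UMIs were summed per mouse over all annotated cells of an organ and over 1 label of an organ, and log2 fold changes (CIA over healthy, ± SE) were fitted with edgeR and p-values adjusted over all genes tested (threshold 0.05). Among 50 values for genes past the filter on low counts, 1 passed: Ccl2 rose in spleen monocytes. Ccl2 got past the filter there through the CIA mice alone, as no healthy mouse reached the level the filter asks for. Its place among the tested genes thus depended on the same difference that was tested. No value of a whole organ passed, with 5 of the 10 genes tested in joint, 5 in lung, 9 in muscle, 3 in skin and 6 in spleen. Few genes of any kind were called there, 0.127% of all genes tested in joint, 4.96% in lung, 0.055% in muscle, 0% in skin and 0.137% in spleen. Within 1 label the share called was 6.36% in spleen monocytes, 6.51% in lung macrophages, 10.3% in joint macrophages and 1.68% in joint fibroblasts. It was 0.183% in muscle macrophages, 0.0511% in muscle T cells, and 0% in muscle fibroblasts, in which none of the 10 genes passed the filter, and in skin fibroblasts, skin basal III cells, spleen B cells and spleen NK cells. In a sum over an organ, more cells of a type and more RNA per cell cannot be told apart.

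**Figure D2:**
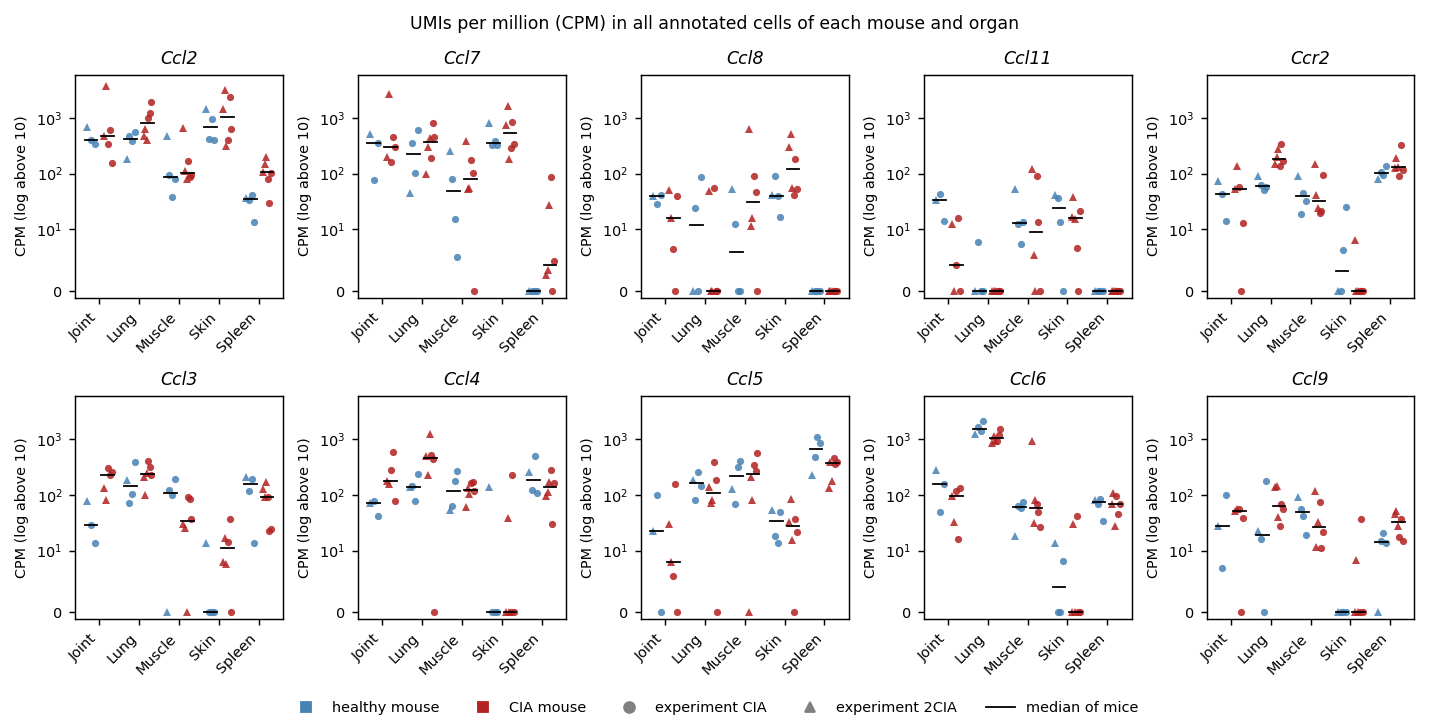
Level of the 10 genes in each mouse (vertical axis, CPM, logarithmic above 10) over all annotated cells of 5 organs, with healthy mice in blue, CIA mice in red, circles for the experiment CIA, triangles for 2CIA and a line at the median. Joint Ccl3 and lung Ccr2 separated the groups, and joint Ccl2 and Ccl7 stood out in 1 CIA mouse, S3.

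**Figure D3:**
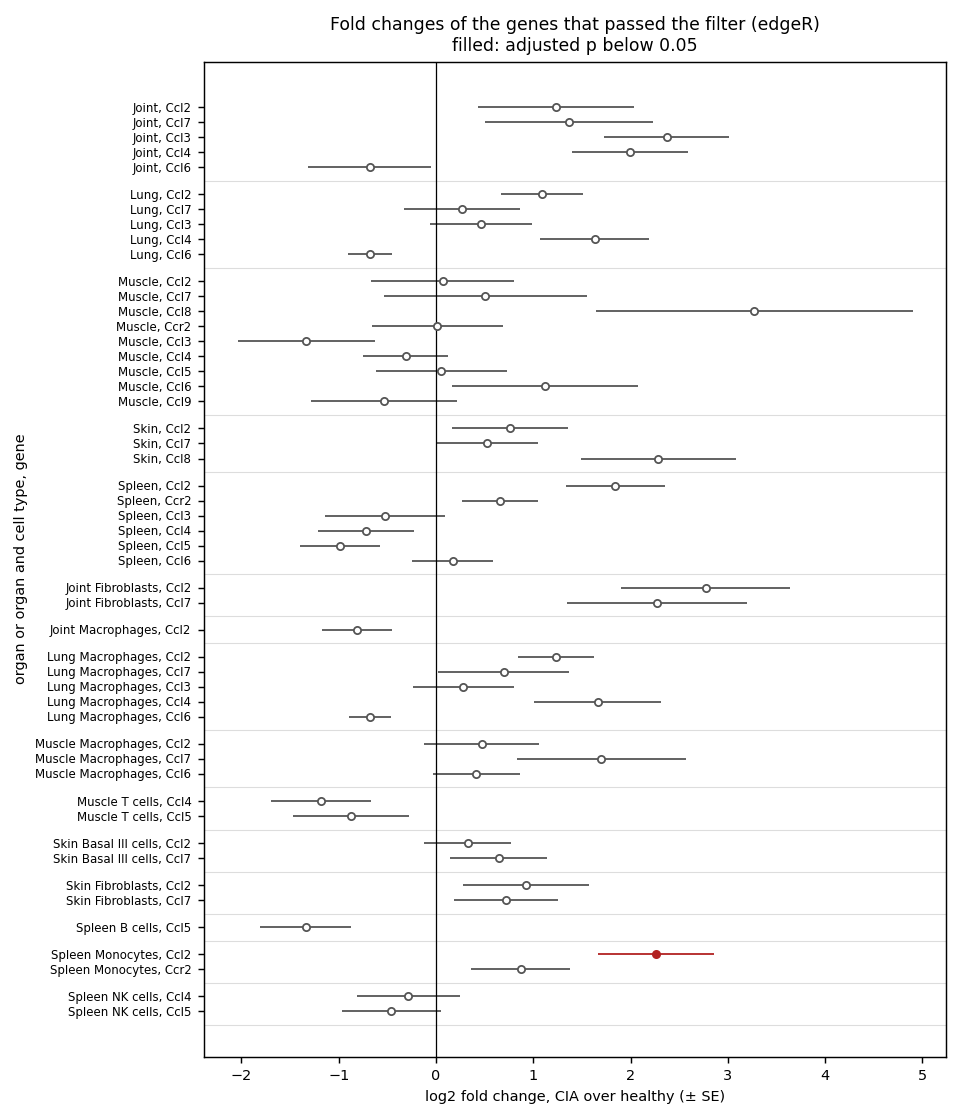
Fitted log2 fold change of CIA over healthy mice (horizontal axis, bars ± SE) for each gene past the filter on low counts in an organ or in 1 label of an organ. The filled red point, Ccl2 in spleen monocytes at 2.26, is the value with an adjusted p under 0.05.

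Ccl2 in spleen monocytes had 0, 11, 4 and 1 UMIs in H3, H4, H6 and H7 and 28, 97, 18, 18, 4 and 20 UMIs in S1, S2, S3, S5, S6 and S8. The levels were 0 to 155 CPM with a median of 78.7 CPM in healthy mice and 140 to 1155 CPM with a median of 554 CPM in CIA mice. S6 lay within the healthy range and the other 5 CIA mice lay above it. The log2 fold change was 2.26 ± 0.59 (edgeR, adjusted p = 0.0398), where 29 of 456 genes tested were called. Ccl2 fell short of the threshold without the cells of shared barcodes (2.23, adjusted p = 0.0582), with the experiment as a term (2.00, adjusted p = 0.0864) and without any 1 of H3, H4, H6, H7 or S3, up to an adjusted p of 0.119 without H7, and without S1, S2 or S8 the filter on low counts removed it. DESeq2, which called 9.87% of genes there, gave an adjusted p of 0.00157, edgeR without the filter, which called 0.485%, gave 0.0180, and the plain library size in place of TMM factors, which called 9.65%, gave 0.0174.

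Other genes of the same cells moved with it. Of 6 markers of Ly6C-high monocytes, the inflammatory subset, 3 were called higher (Ly6c2, Plac8 and Ms4a4c), and the sum over all 6 was 1199 to 1752 CPM in healthy and 3513 to 6243 CPM in CIA mice. The sum over 4 granulocyte markers was 722 to 1021 CPM and 2679 to 24005 CPM, and S100a8 and S100a9 were called higher. The 10 macrophage markers summed to 3638 to 7429 CPM and 9187 to 16449 CPM. The part of these shifts in the rise of Ccl2 was not tested. Monocytes made up 13.3 to 23.3% of spleen cells in healthy and 12.3 to 18.6% in CIA mice.

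Over the whole spleen, Ccl2 was 35.9, 34.0, 42.0 and 13.7 CPM in H3, H4, H6 and H7 and 108, 146, 195, 81.6, 29.9 and 104 CPM in S1, S2, S3, S5, S6 and S8. All CIA mice but S6 lay above the healthy mice, and the mean part of it that came from monocytes was 18.9 CPM in healthy and 91.1 CPM in CIA mice. The fold change was 1.84 ± 0.51 (adjusted p = 0.227), with an adjusted p of 0.00739 without the filter on low counts, where 0.747% of all genes were called, and of 0.0338 by DESeq2, which called 1.61%. Ccl7, removed by the filter, had 0 UMIs in the spleen of all 4 healthy mice, which together allow up to 3.93 CPM, and 1, 3, 3, 25, 0 and 1 UMIs in S1, S2, S3, S5, S6 and S8. Without the filter its adjusted p was 0.0172, and 0.722 without S5, 0.173 without H4 and 0.0714 without H7. Most of these UMIs were in 1 mouse, and 22 of the 33 were in monocytes.

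Ccr2 itself did not pass the test in spleen. Spleen monocytes held 155 to 367 CPM in healthy mice with a median of 221 CPM, and 232 to 1087 CPM in CIA mice with a median of 537 CPM. Of the 6 CIA mice, 4 lay above all healthy mice, and the fold change was 0.87 ± 0.51 (adjusted p = 0.427). In lung Ccr2 was 90.8, 63.3, 51.6 and 58.4 CPM in H3, H4, H6 and H7 and 148, 200.2, 283, 137, 339 and 169 CPM in S1, S2, S3, S5, S6 and S8. Every CIA mouse lay above every healthy mouse, as for 3.06% of the genes tested in lung, on 16 UMIs in healthy and 59 in CIA mice. The filter removed Ccr2 there, and without it the fold change was 1.48 (adjusted p = 0.502). In joint Ccr2 was 13.9 to 72.4 CPM in healthy and 0 to 138 CPM in CIA mice.

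In joint, Ccl2 and Ccl7 were set apart by 1 mouse. Ccl2 was 674, 399 and 348 CPM in H3, H4 and H7 and 473, 3804, 342, 605 and 156 CPM in S1, S3, S5, S6 and S8, and Ccl7 was 507, 78.4 and 362 CPM and 202, 2728, 162, 462 and 299 CPM. The CIA mice other than S3 lay within or below the healthy range for Ccl2 and within it for Ccl7. The fold changes were 1.24 ± 0.80 (adjusted p = 0.585) for Ccl2 and 1.37 ± 0.87 (adjusted p = 0.571) for Ccl7, and -0.15 and -0.072 without S3.

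Joint fibroblasts, with at least 10 cells in 3 mice of each group, had 601, 248 and 233 CPM of Ccl2 in H3, H4 and H7 and 727, 6222 and 784 CPM in S1, S3 and S5. All 3 CIA mice lay above the healthy mice, as for 18.1% of the genes tested there, and the fold change was 2.77 ± 0.87 (adjusted p = 0.157). Ccl7 was 586, 124 and 439.9 CPM and 513, 4648 and 461 CPM, with S1 and S5 between healthy mice, and the fold change was 2.27 ± 0.93 (adjusted p = 0.256). Without the filter on low counts, where 0.52% of genes were called, the adjusted p was 1.93e-05 for Ccl2 and 0.00105 for Ccl7, and these fell short of the threshold without S3, at 0.0685 and 0.550. With the filter, leaving out 1 mouse at a time gave fold changes of 1.02 to 3.34 for Ccl2 and 0.36 to 2.86 for Ccl7, both lowest without S3, and Ccl2 passed without S5 (adjusted p = 0.0422). Granulocyte markers in these fibroblasts summed to 1393 to 5900 CPM in healthy and 13231 to 29491 CPM in CIA mice, and fibroblasts were 42.2 to 52.8% of joint cells in healthy and 4.82 to 44.4% in CIA mice.

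Joint macrophages had Ccl2 in the other direction, without passing the test. The levels were 1815, 1092 and 730 CPM in H3, H4 and H7 and 735, 938, 736 and 627 CPM in the 4 CIA mice with enough cells, which lay within or below the healthy range (-0.81 ± 0.36, adjusted p = 0.227). Lung macrophages had 229 to 489 CPM in healthy mice, with a median of 322 CPM, and 421 to 1914 CPM in CIA mice, with a median of 755 CPM. Of the 6 CIA mice, 5 lay above all healthy mice, and the fold change was 1.23 ± 0.39 (adjusted p = 0.0753). The adjusted p was 0.0381 by DESeq2, which called 7.25% of genes, 0.0373 with the plain library size, which called 5.95%, 0.00753 with the experiment as a term, which also called 5.95%, 0.0452 without H7 and 0.0481 without S1.

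Over the whole lung Ccl2 was 182, 467, 387 and 555 CPM in H3, H4, H6 and H7 and 472, 629, 404, 1012, 1244 and 1916 CPM in S1, S2, S3, S5, S6 and S8. Of the 6 CIA mice, 4 lay above all healthy mice, and the fold change was 1.09 ± 0.42 (adjusted p = 0.189). The mice split by experiment, since the 3 highest were the CIA mice of the experiment CIA. With the experiment as a term the fold change was 1.46 (adjusted p = 0.00305), where 3.5% of genes were called, and among the mice of the experiment CIA alone it was 1.53 (adjusted p = 0.0370), where 1.42% were.

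The same cells differed in other genes. In lung macrophages, 3 of the 8 alveolar macrophage markers were tested and all 3 (Ear2, Chil3 and Fabp1) were called lower, with sums over the 8 of 2238 to 3793 CPM in healthy and 947 to 1741 CPM in CIA mice. Of the 6 Ly6C-high monocyte markers 3 were tested, with Ly6c2 and Plac8 called higher and Chil3, which is on both lists, called lower. The Ly6C-high markers, Chil3 included, summed to 745 to 1223 CPM in healthy and 1881 to 3821 CPM in CIA mice. In joint macrophages Ly6c2 and Plac8 were called higher, the Ly6C-high sum was 0 to 411 CPM and 1756 to 4084 CPM, and granulocyte markers summed to 924 to 8229 CPM and 33192 to 59263 CPM. The part of these shifts in the values of Ccl2 was not tested. The difference between joint and lung macrophages in the CIA effect on Ccl2 was itself tested and was -2.02 ± 0.57 on the log2 scale (adjusted p = 0.104), in a fit in which 0.127% of all genes were called.

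**Figure D4:**
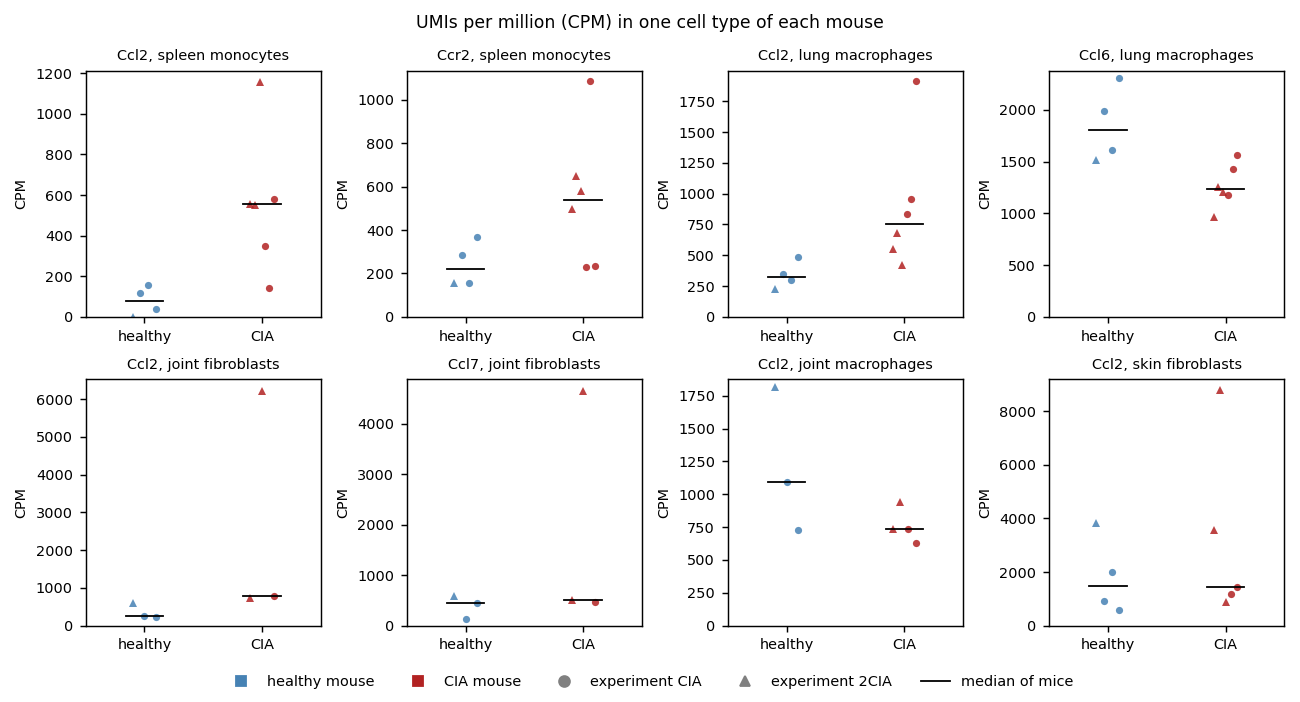
Level per mouse (vertical axis, CPM) of Ccl2, Ccr2, Ccl6 and Ccl7 within 1 label of an organ, with healthy mice in blue, CIA mice in red, circles for the experiment CIA and triangles for 2CIA. Ccl2 in spleen monocytes was 0 to 155 CPM in healthy and 140 to 1155 CPM in CIA mice, and S3 stood apart in joint fibroblasts at 6222 CPM.

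In skin, Ccl8 was 40.7, 89.7, 40.2 and 16.6 CPM in H3, H4, H6 and H7 and reached 304 CPM in S1 and 516 CPM in S2, with 42.0 to 185 CPM in the other 4 CIA mice. S1, S2 and S6 lay above all healthy mice and the other 3 CIA mice within their range, and the fold change was 2.29 ± 0.80 (adjusted p = 0.616). Without the filter on low counts Ccl8 passed (2.37, adjusted p = 7.72e-05), where 0.152% of genes did. In skin basal III cells Ccl8 had 1 UMI in the healthy mice together and 28 in the CIA mice, at 0 to 10.1 CPM and 13.8 to 101 CPM, which do not overlap, as for 1.02% of the genes tested there. The fold change without the filter was 3.36 (adjusted p = 0.469).

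Skin fibroblasts, the strongest source of Ccl2, had 3809, 931, 2012 and 581 CPM of it in the 4 healthy mice and 3576, 8770, 893, 1168 and 1435 CPM in 5 CIA mice. S2 was the highest and the others overlapped with the healthy mice (0.93, adjusted p = 0.741). The fold change of Ccl7 in these cells was 0.72 (adjusted p = 0.741), and over the whole skin it was 0.76 ± 0.59 for Ccl2 (adjusted p = 0.830) and 0.52 ± 0.52 for Ccl7 (adjusted p = 0.896).

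Muscle gave no call, and its sums were uneven. Ccl8 was 0 to 53.6 CPM in healthy mice and 0 to 624 CPM in CIA mice, where the highest value was 21 UMIs in 45 cells of S1. The fold change was 3.27 ± 1.63 (adjusted p = 1.00), and 3.20 without the filter (adjusted p = 0.0231), where 0.25% of genes passed. All 42 Ccl8 UMIs of muscle macrophages were in CIA mice, in 8 of the 274 cells of that label. Of these macrophages, 192 were from CIA and 82 from healthy mice. In muscle T cells Ccl7 had 1 UMI in 3 healthy and 22 in 3 CIA mice, at 0 to 7.02 CPM and 7.44 to 77.8 CPM without overlap, as for 9.2% of the genes tested there (3.02 without the filter, adjusted p = 0.805). Ccl2 differed by 0.067 ± 0.73 and by -0.029 without the cells of shared barcodes, Ccr2 by 0.014 ± 0.67, Ccl5 by 0.055 ± 0.67 and Ccl3 by -1.33 ± 0.70. Ccl11, led by muscle fibroblasts, was 7.63 to 53.6 CPM in healthy and 0 to 119 CPM in CIA mice and did not pass the filter. In joint it was 13.9 to 42.8 CPM in healthy mice and 0 to 15.9 CPM in CIA mice (-1.77 without the filter, adjusted p = 0.619), on 13 and 14 UMIs.

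Ccl3 was the ligand whose joint levels separated the groups. It was 77.9, 28.5 and 13.9 CPM in H3, H4 and H7, the last on 1 UMI, and 135, 80.9, 298, 223 and 260.3 CPM in S1, S3, S5, S6 and S8. Every CIA mouse lay above every healthy mouse, as for 2.75% of the genes tested in joint, and S3 lay just above H3. The fold change was 2.37 ± 0.64 (adjusted p = 0.186), and the adjusted p was 0.0343 by DESeq2, which called 1.95% of genes.

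Granulocytes held most of the Ccl3 UMIs of joint, with 10 in healthy and 325 in CIA mice, a mean part of the joint level of 19.6 CPM and 107 CPM. They were 3.14 to 13.9% of joint cells in healthy and 14.0 to 54.2% in CIA mice, and the part of this share in the joint level was not tested. The mean part from T cells was 2.38 CPM in healthy and 25.0 CPM in CIA mice, and that from macrophages 1.86 CPM and 15.9 CPM. Within joint granulocytes Ccl3 was 334, 450 and 0 CPM in H3, H4 and H7 (8 UMIs in 24 cells, 2 in 5 cells and 0 in 7 cells), and 379, 64.0, 483, 335 and 355 CPM in S1, S3, S5, S6 and S8. The levels per granulocyte UMI thus overlapped between the groups, and healthy joints did not reach the limit of 10 granulocytes in 3 mice. With a limit of 5 cells, where 168 genes were tested and 0 called, Ccl3 did not pass the filter. In joint macrophages Ccl3 had 1 UMI in the healthy mice together and 34 in the CIA mice, at 0 to 24.2 CPM and 63.9 to 175 CPM. Ccl8 had 0 and 16 UMIs in these cells. Neither gene overlapped between the groups there, as for 9.89% of the genes tested above in CIA mice, and without the filter neither passed the test (3.37 and 4.82, adjusted p = 0.608 each).

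Ccl4 in joint was 72.4, 78.4 and 41.7 CPM in H3, H4 and H7 and 174, 154, 278, 589 and 78.1 CPM in S1, S3, S5, S6 and S8. S8 lay just under H4 and the other 4 CIA mice above all healthy mice (2.00 ± 0.60, adjusted p = 0.207). Granulocytes held 2 Ccl4 UMIs in healthy and 233 in CIA joints, and T cells 2 and 115, of which 1 cell of S5 held 60 and 1 cell of S6 held 34. The CIA effect was set against that in muscle, where Ccl3 was 0 to 195 CPM in healthy and 0 to 90.7 CPM in CIA mice. Muscle granulocytes held 53 Ccl3 UMIs in healthy and 0 in CIA mice, and were 7.14 to 28.0% of muscle cells in healthy and 0.151 to 2.29% in CIA mice. The difference between joint and muscle was 3.69 ± 1.10 for Ccl3 (adjusted p = 0.201) and 2.31 ± 0.76 for Ccl4 (adjusted p = 0.267), where 0.0707% of all genes tested were called. Without the filter on low counts that of Ccl3 passed (3.64, adjusted p = 0.0224), where 0.302% did.

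Ccl4 in lung was 77.4 to 234 CPM in healthy mice, with a median of 139 CPM, and 0 to 1251 CPM in CIA mice, with a median of 466 CPM. Of the 6 CIA mice, 4 lay above all healthy mice and 1 had no UMI (1.63 ± 0.56, adjusted p = 0.125, and 0.0298 without S8). In lung macrophages the fold change of Ccl4 was 1.66 ± 0.65 (adjusted p = 0.169) and that of Ccl3 was 0.28 ± 0.52. Muscle T cells differed by -1.18 for Ccl4 (adjusted p = 0.716) and spleen NK cells by -0.28 (adjusted p = 1.00).

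Ccl5 ran from 224 to 1091 CPM in the spleen of healthy mice, with a median of 660 CPM, and from 134 to 465 CPM in CIA mice, with a median of 369 CPM. Of the 4 healthy mice, 3 lay above all CIA mice (-0.99 ± 0.41, adjusted p = 0.680). Its leading source, the spleen NK cells, had 783, 2296, 4579 and 2635 CPM in healthy mice and 898, 4186, 1723, 1313 and 1551 CPM in 5 CIA mice, which overlapped throughout (-0.46 ± 0.51, adjusted p = 1.00). Spleen B cells, which held 281 CPM in healthy and 102 CPM in CIA mice, differed by -1.34 ± 0.47 (adjusted p = 0.962). Granulocytes were 0 to 2.42% of spleen cells in healthy and 1.67 to 16.1% in CIA mice.

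Ccl6 in lung macrophages was 1519 to 2312 CPM in healthy mice, with a median of 1802 CPM, and 961 to 1566 CPM in CIA mice, with a median of 1234 CPM. Of the 6 CIA mice, 5 lay below all healthy mice and 1 just above the lowest of them (-0.67 ± 0.21, adjusted p = 0.0753, and 0.0408 without S6). The whole lung gave -0.68 ± 0.23 (adjusted p = 0.111). The alveolar macrophage markers named above were lower in the same cells, and their part in the values of Ccl6 was not tested. Joint Ccl6 was 49.9 to 273 CPM in healthy and 15.9 to 130.2 CPM in CIA mice (-0.68 ± 0.63, adjusted p = 0.720), and joint macrophages had 420.2 to 992 CPM and 165 to 471 CPM.

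Ccl9, the neighbour of Ccl6, passed the filter in muscle (-0.53 ± 0.75, adjusted p = 1.00) and in the difference between joint and muscle (0.92 ± 1.18, adjusted p = 0.917). In spleen monocytes it was 0 to 81.6 CPM in healthy and 64.2 to 159 CPM in CIA mice, with 4 of 6 CIA mice above all healthy mice. In joint macrophages the levels were 0, 121 and 225 CPM in the order of size in healthy mice and 188 to 289 CPM in CIA mice.

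Other genes of the family gave no call. Of 14 further CC ligands, 8 were in the count table, led by Ccl12 and Ccl17 with 127 UMIs each, and none passed the filter in any fit. The sum over the 8 was 27.8 to 363 CPM in healthy and 10.2 to 63.7 CPM in CIA joints. Of 13 further CC receptors Ccr7, which guides lymphocytes and dendritic cells to lymph nodes, had 1570 UMIs, and Ccr1, the receptor of Ccl3, Ccl5, Ccl6 and Ccl9, had 988. Ccr1 in joint differed by 2.96 ± 0.84 (adjusted p = 0.198), and its CIA effect in joint lay above that in muscle by 4.63 ± 1.07 (adjusted p = 0.0901). Ccr7 in spleen differed by -0.94 (adjusted p = 0.499).

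Tissue digestion is known to induce immediate early genes, and several chemokine genes are known to respond to the same handling. All 13 genes of a list of such response genes were tested in joint and 0 were called, with Fos in joint macrophages the single call, lower in CIA mice. The sum over the 13 in joint macrophages was 7213 to 10588 CPM in healthy and 2697 to 5712 CPM in CIA mice, in the cells in which Ccl2 differed by -0.81. In spleen monocytes, from the organ that was not digested, the sum was 8452 to 11424 CPM and 5191 to 11114 CPM. The part of handling in the level of any chemokine was not tested.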

How the data were processed

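Seq-Well libraries of 48 samples (5 organs of 10 mice) were used. The authors mapped reads with STAR to GRCm38 and counted UMIs with the Drop-seq tools. They filtered cells by minimum reads, UMIs and genes and by the share of mitochondrial genes. They also removed cells with an excess of transcripts as possible duplicates. The values they deposited are raw UMI counts, whole numbers with no scaling. Their cell type labels, which rest on a denoised version of the counts together with reference profiles and clustering, were taken as they were. No further search for doublets was made here.

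For each mouse, the counts of all annotated cells in an organ were added up, or those of 1 label with at least 10 cells in at least 3 healthy and 3 CIA mice. The sums were compared by the quasi-likelihood test of edgeR 4.0.16 (R 4.3.3) with TMM factors and filterByExpr, and p-values were adjusted by the Benjamini-Hochberg method over all genes tested (threshold 0.05). The fits were tested on simulated counts with a fixed spread between mice. Of the genes changed 2-fold, 2.99% (joint against muscle) to 66.7% (muscle fibroblasts) were recovered, with 17.9% in joint. Of those changed 8-fold, 68.2% (joint) to 95.5% (joint macrophages) were, so small changes can go without a call. Values of genes below the filter are from a fit of every gene with at least 1 count. Shares of genes whose groups do not overlap are over the genes past the filter, also where the member beside them was removed by it. Differences between organs were interaction terms over samples taken as independent. Samples of the same mouse name in 2 organs are from the same animal. Their deviations from the group means had correlations of -0.16 to 0.27 between joint and muscle (8 mice) and -0.15 to 0.14 between joint and lung macrophages (7 mice), and the mouse as a block changed no call. Levels (CPM) are scaled to all UMIs of the cells summed, without TMM factors.

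The named genes were the 10 members, the other CC ligands and receptors, marker lists and, per member, the 3 genes with the highest Pearson correlation of log2(CPM + 10) over groups of at least 30 cells, of which not all are printed. Members and lists were chosen with earlier results of these data known. Alternatives were DESeq2 1.42.0, RLE factors, plain library size, a fit with no filter, limits of 5 or 20 cells of a label, the experiment as a term, the 1 experiment CIA, means over cells, every cell of a sample, the mouse or mouse number as a block and leaving out each mouse. The fit without cells of shared barcodes was chosen after seeing the data. Python 3.11.15, numpy 2.4.6, scipy 1.17.1 and matplotlib 3.10.9 served for the rest.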

Additional observations from a re-analysis of the deposited data

Results flagged for a closer look

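The highest mouse lay far from the others of its group, by a test of the gap against the group's range, in 12 of 83 groups tested. The cut-offs of that test assume normally distributed values, and the groups share mice and cells. How many such groups chance alone would give was not tested. In CIA joints S3 had 3804 CPM of Ccl2 (470 UMIs), with the next mouse at 605 CPM, and 2728 CPM of Ccl7 (337 UMIs), with the next at 462 CPM. Healthy muscle of H3 had 482 CPM of Ccl2 (27 UMIs), the next 94.5 CPM. CIA muscle of S1, with 45 cells, had 654 CPM of Ccl2 (22 UMIs), 922 CPM of Ccl6 (31 UMIs) and 624 CPM of Ccl8 (21 UMIs), with the next mice at 169, 79.6 and 90.7 CPM. Healthy skin of H3 had 828 CPM of Ccl7 (61 UMIs), the next 388 CPM, and skin fibroblasts of S2 had 4731 CPM of Ccl7 (355 UMIs), with the next CIA mouse at 1603 CPM. In lung macrophages of CIA mice, S8 had 1914 CPM of Ccl2 (33 UMIs), the next 955 CPM, and S3 had 1630 CPM of Ccl4 (31 UMIs), the next 485 CPM. In spleen NK cells, healthy H6 had 981 CPM of Ccl4 (18 UMIs), the next 343 CPM, and S2 had 4186 CPM of Ccl5 (227 UMIs), with the next CIA mouse at 1723 CPM.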

How the results depend on the processing

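Calls of chemokine genes were few and moved with the settings. Over the whole organs 0 values were called, against 4 with no filter on low counts, 2 by DESeq2, 1 with the experiment as a term, 1 in the mice of the experiment CIA alone and 0 to 1 without 1 mouse. Within labels 1 was called, against 3 with no filter, 2 by DESeq2, 2 with plain library size, 0 in the mice of the experiment CIA alone, 0 without cells of shared barcodes (chosen after seeing the data) and 0 to 2 without 1 mouse. For joint against muscle 0 were called, against 1 with no filter. Healthy and CIA mice share only the numbers 3 and 6, which name different animals. In a fit with that number as a block, the CIA effect thus rests on H3 against S3 and H6 against S6 alone, a pairing with no meaning. With that number as a replicate block, 2 values of organs (Ccl4 and Ccl7 in lung, adjusted p = 0.0418 each, where 0.583% of genes were called) and 3 of labels (Ccl4 and Ccl7 in lung macrophages, where 2.97% were, and Ccr2 in spleen monocytes, where 6.36% were, but not Ccl2 there, at 2.30 and an adjusted p of 0.143) were called, and signs turned for Ccl2, Ccl4, Ccl5 and Ccr2 in muscle (-0.73, 0.12, -0.50 and -1.48), Ccl2 and Ccl7 in skin (-0.43 and -0.63), Ccl6 in spleen (-1.13) and Ccl2 and Ccl7 in basal III cells (-0.079 and -0.44). The mouse as a block in the comparisons between organs changed no call. Signs also turned for Ccl6 between joint and lung macrophages (0.21) and Ccl4 in spleen NK cells (0.020) with no filter, Ccl6 in joint (0.26) and muscle (-0.52) in the experiment CIA alone, Ccr2 in muscle (-0.080) and Ccl5 in muscle T cells (0.23) with the experiment as a term, Ccl2 in muscle without shared barcodes (-0.029), Ccr2 in muscle with every cell (-0.14), and Ccl4 and Ccl5 in muscle (0.0023 and -0.072) and Ccl7 in skin (-0.10) with a mean over cells. Leaving out 1 mouse turned signs in 20 of 64 values, with ranges in joint of -0.15 to 1.56 (Ccl2) and -0.072 to 1.96 (Ccl7), in lung of -0.23 to 0.79 (Ccl7), in muscle of -0.54 to 1.00 (Ccl2), -0.57 to 0.15 (Ccl4), -0.35 to 0.46 (Ccl5), -0.36 to 1.50 (Ccl6), -0.010 to 1.48 (Ccl7) and -0.42 to 0.26 (Ccr2), in skin of -0.090 to 0.93 (Ccl7), in spleen of -0.089 to 0.34 (Ccl6), in lung macrophages of -0.17 to 0.87 (Ccl3), in muscle macrophages of -0.17 to 0.85 (Ccl2), in skin fibroblasts of -0.039 to 1.15 (Ccl7), in spleen NK cells of -0.54 to 0.39 (Ccl4), between joint and muscle of -0.37 to 1.92 (Ccl2), -1.59 to 1.40 (Ccl5), -0.71 to 1.53 (Ccl7) and -0.15 to 1.04 (Ccr2) and between joint and lung macrophages of -0.65 to 0.35 (Ccl6). The cause of these changes was not tested. Of the values under settings other than leaving out a mouse, 512 stayed the same, 20 turned sign, 18 came to pass the threshold, 3 no longer passed it and 9 moved. These counts include the fits with the mouse number as a block. The same meant an unchanged sign and side of the threshold where an adjusted p was given. For means over cells it meant a value within the SE, and for shares after thinning a value within a confidence interval. With 3 to 6 mice a group and few UMIs per mouse, levels of the rarer genes (Ccl8, Ccl9, Ccl11) rest on single counts in many samples.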

Other observations

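The 1144 cells without a label also held chemokine transcripts. Ccl2 had 141 UMIs in them (200.5 CPM pooled over samples), Ccl5 had 127, Ccl6 had 121, Ccl7 had 101, Ccl4 had 95, Ccl3 had 62, Ccr2 had 36, Ccl8 had 25, Ccl9 had 17 and Ccl11 had 6. Summed per mouse over the organs, Ccl2 in these cells had a median of 163 CPM in healthy and 221 CPM in CIA mice, and 1 CIA mouse lay above all healthy mice. These cells were in no comparison of the report.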
